A study of Sus scrofa with 18 samples.

Results

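Young boars fed a cow's milk formula were compared with young boars suckled by the sow, by the RNA of their livers. The comparison uses the 3 pools titled as milk formula-fed males and the 3 pools titled as sow-fed males, which are 6 of the 18 arrays of the study. The pools were chosen by their titles alone, and their arrays were fitted without those of the other groups. The study crossed 2 sexes with 3 diets (sow milk, milk formula and soy formula), with 3 pools in each of 6 groups, and asked how formula feeding alters hepatic gene expression in the newborn pig.

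All piglets were killed at postnatal day 21. The sow-fed boars had stayed with the sow, and the milk formula boars had been weaned at day 2 onto a commercial infant formula based on cow's milk. Feeding formula and leaving the sow therefore began together, and their effects cannot be told apart. The 3 soy formula boar pools (weaned at day 2 onto a soy-based formula), the 3 sow-fed gilt pools and the 3 milk formula gilt pools, gilts being young females, are used only to set values beside those of the boars. Each array holds liver RNA of a pool, and the sources used here state neither the breed nor how many animals made a pool. The p-values thus measure the spread between pools.

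Each value is an expression ratio, a positive number on a linear scale for 1 probe set on 1 array. Its divisor is not stated and is taken here to be the same on all arrays for a probe set, which is an inference from the values. On that reading a ratio of 1 pool can be set against that of another pool for the same probe set, but not against the ratio of another gene. Differences are on the log2 scale, milk formula minus sow milk, with the standard error (SE) of the fit. A probe set or gene is called, and is said to have risen or fallen, where limma's adjusted p (Benjamini-Hochberg over all 23935 probe sets) was under 0.05. Genes named for a small p tend to have diet pools that do not overlap, so that trait adds no evidence for them.

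The liver takes cholesterol from the diet or makes it from acetyl units through a long chain of enzymes. The genes of that chain are switched on together by the transcription factor SREBP2 when cells sense little sterol, and SREBP1 acts likewise on genes of fatty acid synthesis. The liver is also the source of hepcidin, the hormone that blocks the release of iron from the gut and from macrophages, and its gene HAMP is activated by BMP signals when iron is plentiful. Alpha-fetoprotein, the main serum protein of the fetus, is made by the fetal liver and declines after birth.

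The 6 boar arrays had median ratios of 0.306 to 0.309. Over the probe sets, which do not count as replicates, arrays of one diet correlated at 0.824 to 0.861 and arrays of different diets at 0.807 to 0.846. The corresponding gilt arrays correlated at 0.975 to 0.983 and at 0.957 to 0.975. The median standard deviation within a group was 0.30 (log2) in boars and 0.13 in gilts, and it was larger in boars for 88.4% of probe sets. Spiked hybridisation controls had mean ratios of 1.54 to 2.17 on sow-fed boar arrays, 2.01 to 2.55 on milk formula boar arrays and 0.224 to 0.461 on gilt arrays. The 18S ribosomal RNA ratio was 0.946 to 1.01 on the sow-fed and 0.460 to 0.840 on the milk formula boar arrays, which do not overlap, while the 3' over 5' ratios of GAPDH and actin overlapped between the boar diets. The part of these signals in the results was not tested.

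In boars 22 of 23935 probe sets were called (0.0919% of those tested), 18 of them higher on milk formula (0.0752%) and 4 lower (0.0167%). Without adjustment, 1548 probe sets (6.47%) had p under 0.05, 910 higher and 638 lower. The called probe sets carry 13 named genes, and 7 have no gene symbol. With 1 probe set a gene, 10 of 6765 genes rose (0.148%) and 2 fell (0.0296%). At such shares a short list is likely to hold no called gene, and called genes lay in 5 of the 34 gene lists. A list with none called therefore does not stand out from the rest. The probe set chosen for a gene had the highest mean log2 ratio over the 6 arrays. That mean depends on the unstated divisor, so the chosen probe set need not be the brightest. Of 35 genes named here that have several probe sets, 23 had another that gave the opposite sign or a difference smaller by over 1.5 times. The smallest difference called was 1.43, while the median SE over all probe sets was 0.25, and no smaller difference passed. The count of 22 also rested on single arrays: it was 7 without milk formula pool 1, 14 without pool 2 and 1 without pool 3. It was 11 without sow-fed pool 1, 6 without pool 2 and 8 without pool 3. Each of these fits has 5 arrays and so fewer residual degrees of freedom.

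**Figure D1:**
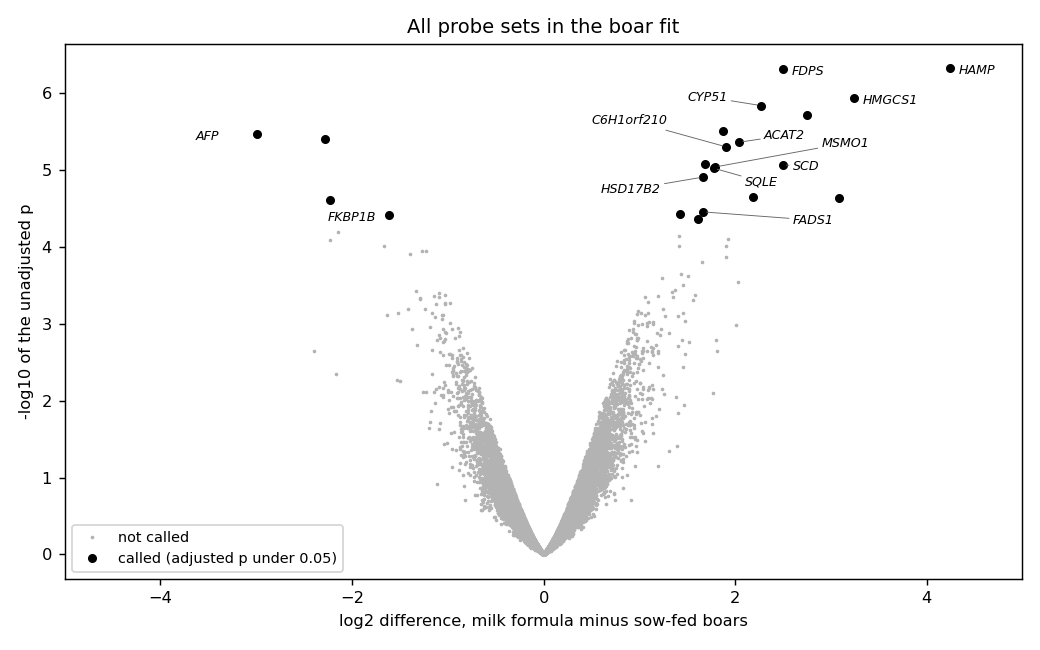
Each point is 1 of 23935 probe sets, with the log2 difference (milk formula minus sow-fed boars) on the x axis and -log10 of the unadjusted limma p on the y axis. The 22 called probe sets are black, 18 to the right of 0 and 4 to the left; HAMP at 4.24 lies farthest right and AFP at -2.99 farthest left, and called points with no name carry no symbol or are a second probe set of a named gene.

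Among the genes of iron, HAMP rose most. The HAMP ratio was 0.0587, 0.0857 and 0.0344 in the 3 sow-fed boar pools and 1.82, 0.643 and 1.01 in the 3 milk formula pools. The groups lie far apart, with milk formula pool 1 the highest and sow-fed pool 3 the lowest. The log2 difference was 4.24 (SE 0.40, 18.9-fold, limma adjusted p = 0.00594, 3 pools a diet). Without milk formula pool 3 the adjusted p was 0.0579, and in each of the other 5 such fits it stayed under the threshold, at 0.0389 or lower.

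TFRC, the transferrin receptor by which cells take up iron, narrowly missed the threshold. Its ratio was 3.47, 1.43 and 3.25 on sow milk and 0.668, 0.653 and 0.427 on milk formula. All sow-fed pools were above all milk formula pools, with sow-fed pool 2 the lowest of its group. The difference was -2.14 (SE 0.34, adjusted p = 0.0678), and it was called without sow-fed pool 2 (-2.55 there, adjusted p = 0.0319). Of 13 measured iron genes 1 rose, 0 fell and 12 were not called, with a median of 0.15 beside 0.05 over all 6765 genes. FTL, the light chain of the iron store ferritin, had a difference of 0.20 (SE 0.25), and the other members lay between -0.24 and 0.81. The bulk samples cannot tell fewer cells of a type from less RNA per cell.

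BMP signals reach the nucleus through SMAD proteins and switch on the ID genes as well as HAMP. ID1, which encodes such a target, had ratios of 0.173, 0.336 and 0.315 on sow milk and 0.724, 0.737 and 1.07 on milk formula. The groups do not overlap, but the difference of 1.66 (SE 0.29) was not called (adjusted p = 0.111). Of all 6765 genes, 366 were higher and 197 lower at unadjusted p under 0.05. Of 10 measured BMP genes none was called, with 2 higher and 1 lower at that p and a median of -0.04. The other member higher there was ID3 (0.61, adjusted p = 0.70), and the one lower was SMAD4 (-0.61, adjusted p = 0.746), the SMAD shared by BMP and TGF-beta signals.

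**Figure D2:**
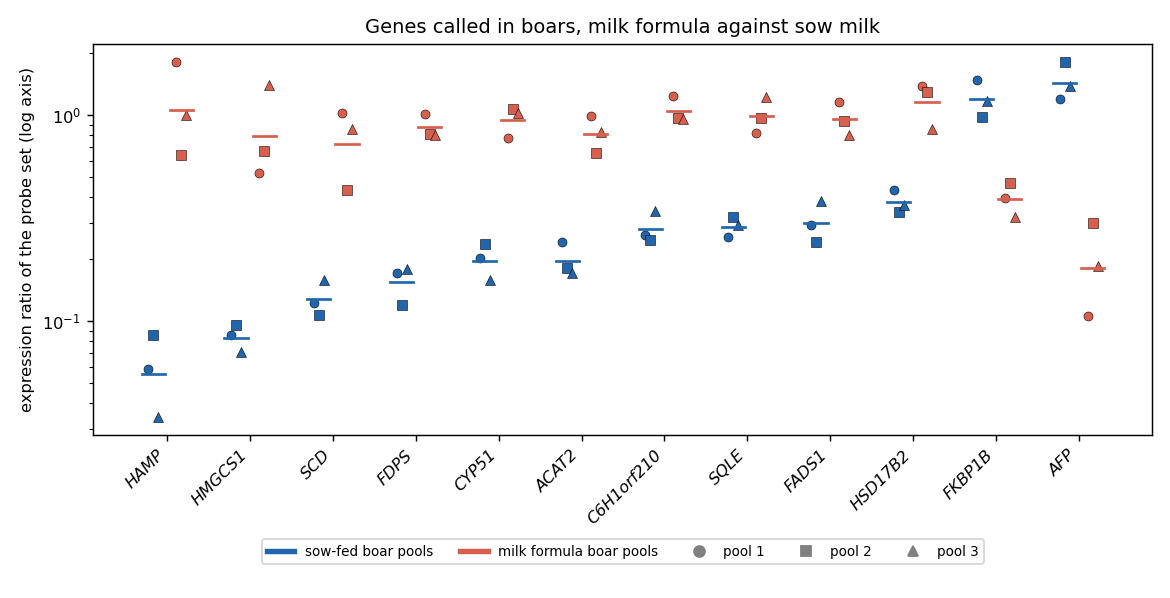
Expression ratio (log axis) of the 12 genes called in boars with 1 probe set a gene, in each sow-fed pool (blue) and milk formula pool (red); the shape of a point gives the pool number and the line is the mean of the log2 values of a diet. The 10 genes on the left are higher in every milk formula pool than in every sow-fed pool, and FKBP1B and AFP are lower in every milk formula pool.

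Cholesterol synthesis held 5 of the 10 genes that rose. Of its 11 measured genes 5 rose, 0 fell and 6 were not called; 10 had milk formula pools that all lay above the sow-fed pools, against 7.36% of all genes, while none lay the other way, against 4.57%. The median difference was 1.44, beside 0.05 over all genes. The list was known from earlier results to stand out in these data, so its counts are no independent evidence.

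The chain begins with ACAT2, which joins acetyl units, and HMGCS1, which makes HMG-CoA, the substrate of the rate-limiting reductase. The HMGCS1 ratio was 0.0858, 0.0957 and 0.0707 on sow milk and 0.522, 0.667 and 1.41 on milk formula. The sow-fed pools were close together and milk formula pool 3 was the highest. The difference was 3.24 (SE 0.34, 9.45-fold, adjusted p = 0.00876). HMGCS1 was the only gene still called in each of the 6 fits with 1 array left out, with an adjusted p of at most 0.0444. For ACAT2 the ratio was 0.243, 0.182 and 0.172 on sow milk and 0.987, 0.654 and 0.827 on milk formula. These groups were also well apart, by 2.04 (SE 0.24, adjusted p = 0.0117), and its second probe set rose by 2.19 (adjusted p = 0.0324). ACAT2 was not called without milk formula pool 1, milk formula pool 3, sow-fed pool 2 or sow-fed pool 3, with an adjusted p of at most 0.0856.

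In the middle of the chain FDPS makes farnesyl diphosphate, FDFT1 joins a pair of farnesyl units to squalene, and SQLE oxidises squalene. The FDPS ratio was 0.172, 0.120 and 0.179 on sow milk and 1.02, 0.814 and 0.801 on milk formula. Both groups were tight, and the difference of 2.50 (SE 0.24, 5.64-fold, adjusted p = 0.00594) was lost without milk formula pool 3 (adjusted p = 0.0554). The SQLE ratio was 0.257, 0.320 and 0.292 against 0.822, 0.965 and 1.22. It rose by 1.78 (SE 0.23, adjusted p = 0.0164), though it was called in none of the 6 fits with 1 array left out, where its adjusted p was 0.0565 to 0.129. The FDFT1 ratio was 0.332, 0.243 and 0.368 on sow milk and 0.787, 0.661 and 1.13 on milk formula. Its pools do not overlap either, but the difference of 1.44 (SE 0.27) was not called (adjusted p = 0.153).

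The later steps turn the sterol ring into cholesterol. CYP51, a demethylase of lanosterol, had ratios of 0.204, 0.236 and 0.158 on sow milk and 0.774, 1.07 and 1.02 on milk formula. It rose by 2.27 (SE 0.24, 4.81-fold, adjusted p = 0.00876), and without milk formula pool 3 its adjusted p was 0.0788. MSMO1, the sterol oxidase that follows, was called by 1 of its probe sets: 0.281, 0.348 and 0.223 on sow milk against 0.961, 0.911 and 1.04 (1.79, SE 0.23, adjusted p = 0.0164). The probe set with the highest mean gave 1.04 for MSMO1 (adjusted p = 0.372) and another gave -0.05, so the probe sets of this gene disagree. SC5D (1.40), HSD17B7 (0.88) and NSDHL (0.72) had pools that do not overlap but were not called, and TM7SF2 (0.32) had an unadjusted p above 0.05.

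The genes that sense sterol or carry it were not called: of 11 measured, 0 rose and 0 fell. Over all genes 0.148% rose and 0.0296% fell, so a list of this length would seldom hold a call. The median of the 11 was 0.17. NPC1, which releases cholesterol from lysosomes, had the smallest p (0.89, SE 0.28, adjusted p = 0.526), followed by ABCA1, an exporter of cholesterol (0.56), and MYLIP, a ligase that removes the LDL receptor (-0.40). SREBF2, the gene of SREBP2, differed by 0.31 (SE 0.24) and its inhibitor INSIG1 by -0.27 (SE 0.46). Neither difference exceeded its error by much.

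Fatty acid synthesis gave 2 of the genes that rose, both desaturases. The ratio of SCD, which puts the first double bond into saturated fatty acids, was 0.123, 0.107 and 0.159 on sow milk and 1.02, 0.433 and 0.853 on milk formula. The lowest milk formula pool was still well above the highest sow-fed pool, and SCD rose by 2.50 (SE 0.32, 5.65-fold, adjusted p = 0.0164). It was called without milk formula pool 2 but in none of the other 5 such fits (adjusted p 0.0585 to 0.138). FADS1, a desaturase of long polyunsaturated fatty acids, had ratios of 0.293, 0.244 and 0.382 against 1.17, 0.936 and 0.799. It rose by 1.67 (SE 0.25, adjusted p = 0.0445), and its call was lost whichever of the 6 arrays was left out (adjusted p 0.0709 to 0.218).

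Of the 16 measured genes of fatty acid and triglyceride synthesis 2 rose, 0 fell and 14 were not called, with a median of 0.46. At unadjusted p under 0.05, 7 were higher and 0 lower, beside 366 higher and 197 lower of all 6765 genes. ACSS2, which activates acetate, differed by 1.18 (SE 0.29) and PNPLA3 by 0.88, without a call. FASN, the fatty acid synthase itself, had ratios of 1.73, 0.809 and 0.776 on sow milk and 1.10, 1.30 and 0.893 on milk formula. The groups overlap fully, and the FASN difference was 0.08 (SE 0.32).

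AFP, the gene of alpha-fetoprotein, showed the largest fall. Its ratio was 1.19, 1.80 and 1.38 on sow milk and 0.106, 0.301 and 0.186 on milk formula. Every milk formula pool was below every sow-fed pool by a wide margin. AFP fell by 2.99 on the log2 scale (SE 0.35, 7.93-fold lower, adjusted p = 0.0117). The call was lost without milk formula pool 3 (adjusted p = 0.0812), without sow-fed pool 2 (adjusted p = 0.0803) and without sow-fed pool 3 (adjusted p = 0.0585).

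Of 9 measured fetal and imprinted liver genes AFP alone was called, and the median was -0.27. PEG10, an imprinted gene derived from a retrotransposon, had ratios of 2.50, 1.95 and 1.27 on sow milk and 0.160, 1.19 and 0.223 on milk formula. Milk formula pool 2 stood near the sow-fed pools and far above the other 2 of its group, so the difference of -2.39 had an SE of 0.60 and was not called (adjusted p = 0.372). IGF2, the fetal growth factor, ranged from 1.09 to 6.97 on sow milk and from 0.465 to 2.15 on milk formula. Its groups overlap, and its difference of -1.12 (SE 0.67) was not called.

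Outside these pathways 3 more named genes were called. HSD17B2, an enzyme that inactivates estradiol and testosterone, had ratios of 0.432, 0.340 and 0.368 on sow milk and 1.39, 1.30 and 0.859 on milk formula. It rose by 1.61 (SE 0.25, adjusted p = 0.0471), and a second probe set was called as well (1.67, adjusted p = 0.0199). C6H1orf210, a gene named by its place in the genome, had ratios of 0.262, 0.247 and 0.343 against 1.25, 0.971 and 0.962, and rose by 1.90 (SE 0.23, adjusted p = 0.0120). FKBP1B, which binds calcium release channels, fell from 1.48, 0.985 and 1.17 to 0.398, 0.468 and 0.322, a difference of -1.61 (SE 0.24, adjusted p = 0.0448). In each of the 3 genes the groups do not overlap. A second FKBP1B probe set gave -0.54 (adjusted p = 0.789), and HSD17B2 and FKBP1B were called in none of the 6 fits with 1 array left out, with an adjusted p of up to 0.230 and 0.233. C6H1orf210 was called only without sow-fed pool 3 (adjusted p up to 0.0817 in the other 5 fits).

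HSD17B2 was the 1 gene called of 19 for steroid and thyroid hormones, whose median was 0.11. The next of that list by p was SERPINA7, the carrier of thyroid hormone in blood, with ratios of 1.44, 1.16 and 0.892 against 0.650, 0.470 and 0.569. Its pools do not overlap, and the difference of -1.03 (SE 0.25) was not called (adjusted p = 0.330).

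**Figure D3:**
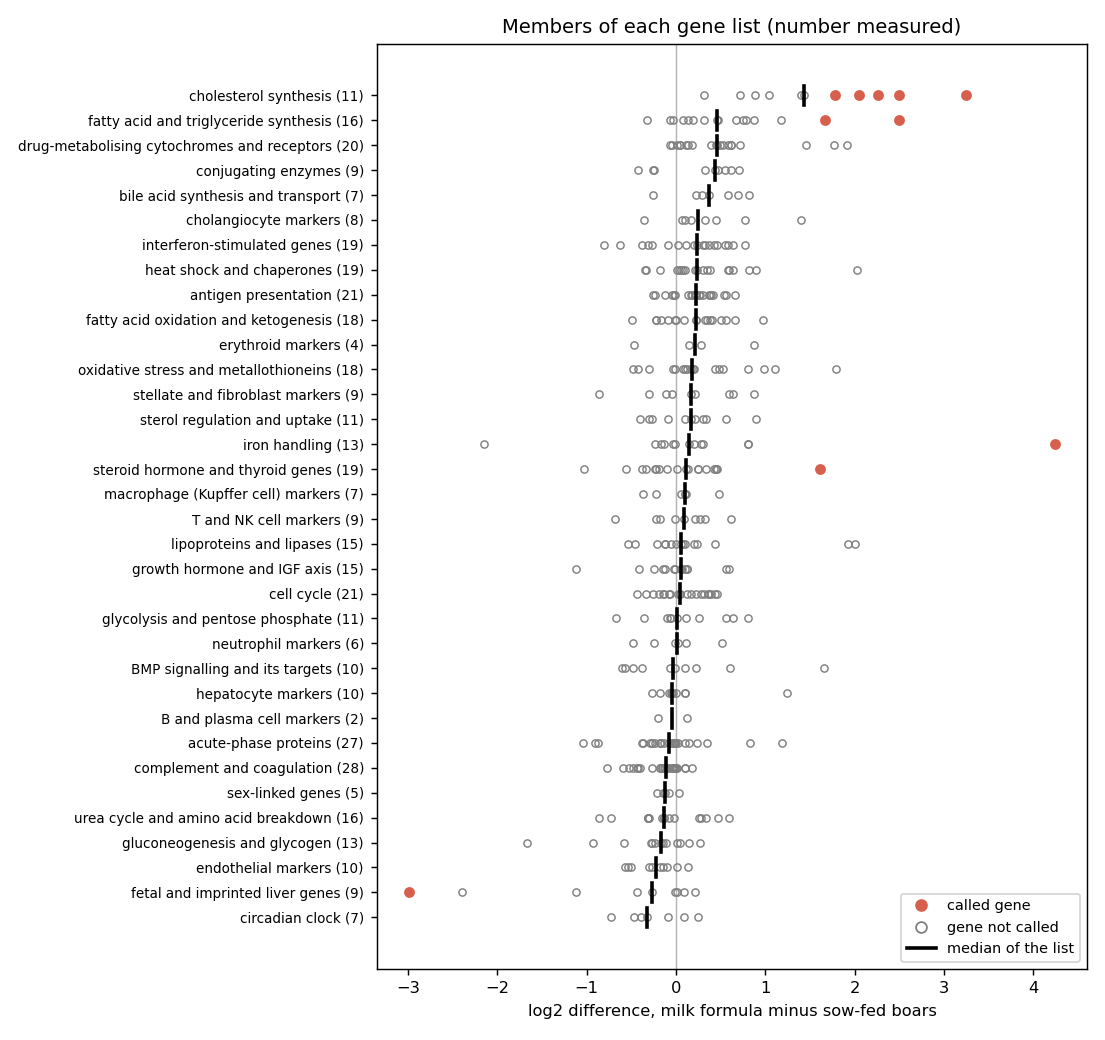
Log2 difference (milk formula minus sow-fed boars) of each measured gene of the 34 lists, with the number measured in brackets; filled red points are called genes, open points are not called and the black bar is the median of the list. Cholesterol synthesis has the highest median (1.44) and circadian clock genes the lowest (-0.33), and called genes lie in 5 lists.

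Glucose production had no called gene. PCK1, which encodes the enzyme that commits carbon to new glucose, had ratios of 1.65, 1.25 and 2.40 on sow milk and 0.683, 0.474 and 0.481 on milk formula. The groups do not overlap, and the difference was -1.66 (SE 0.28, adjusted p = 0.0811). TAT, which breaks down tyrosine, differed by -0.93 (adjusted p = 0.330), and the glucose transporter SLC2A2 by -0.58 (adjusted p = 0.78). Of the 13 measured genes of gluconeogenesis and glycogen 9 were below 0, as were 2944 of all 6765 genes, and the median was -0.17. Of 11 genes of glycolysis and the pentose phosphate path none was called either (median 0.01), and PGD (0.81), GAPDH (0.64) and TKT (0.56) had the smallest p.

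Nitrogen disposal likewise had none called of 16 measured genes (median -0.13). CPS1, which feeds ammonia into the urea cycle, had ratios of 0.953, 0.904 and 1.18 on sow milk and 0.490, 0.667 and 0.520 on milk formula. All milk formula pools were the lower, but the difference of -0.86 (SE 0.23) did not pass (adjusted p = 0.395). CTH, an enzyme of cysteine synthesis, stood at -0.72 and BHMT, which remethylates homocysteine, at 0.59.

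Several genes were high in 1 milk formula pool. ANGPTL4, an inhibitor of lipoprotein lipase, had ratios of 0.688, 0.345 and 0.295 on sow milk and 3.56, 1.05 and 1.22 on milk formula. APOA4, an apolipoprotein made after fat meals, had 0.326, 0.358 and 0.425 against 2.22, 0.874 and 1.40. CYP2A19, a cytochrome P450, had 0.441, 0.474 and 0.590 against 5.25, 0.818 and 1.13. In each of them milk formula pool 1 was the highest, and the groups do not overlap. The differences were 2.01 (adjusted p = 0.286) for ANGPTL4, 1.93 (adjusted p = 0.0746) for APOA4 and 1.76 (adjusted p = 0.52) for CYP2A19. Without milk formula pool 1 they were 1.46, 1.59 and 0.95.

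**Figure D4:**
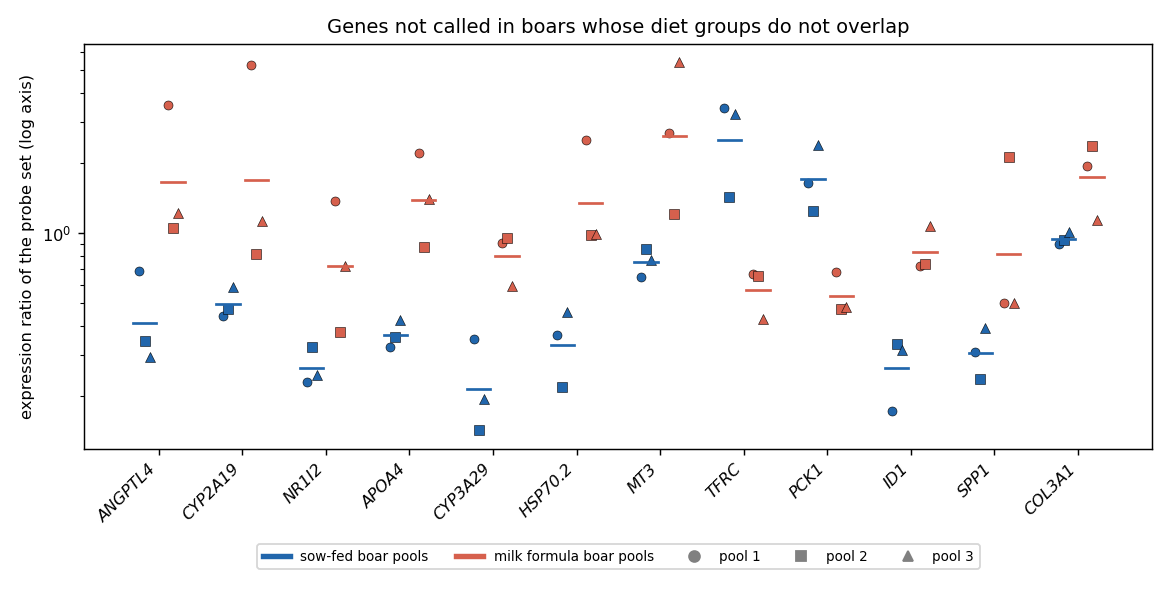
Expression ratio (log axis) of 12 named genes that were not called in boars, in each sow-fed pool (blue) and milk formula pool (red); shapes give the pool number and lines the mean of the log2 values of a diet. The 12 were picked from genes whose diets do not overlap, so that trait is not a result. Single milk formula pools stand high, such as pool 1 for CYP2A19 (5.25), pool 3 for MT3 (5.41) and pool 2 for SPP1 (2.13).

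Of 15 measured lipoprotein and lipase genes 0 were called (median 0.06), LIPC, the hepatic lipase, being the third by p (-0.54). Of 18 genes of fatty acid oxidation and ketogenesis 0 were called (median 0.22), with ACADL (0.97), PPARA (0.66, and -0.15 by a second probe set) and HADHA (0.56) first by p. Bile acid genes had 0 of 7 called and a median of 0.36. CYP7A1, the rate-limiting enzyme of bile acid synthesis, had ratios of 0.301, 0.201 and 0.215 on sow milk and 0.256, 0.667 and 0.417 on milk formula. The groups overlap through milk formula pool 1, and the difference was 0.82 (SE 0.33, adjusted p = 0.712). NR5A2, a nuclear receptor acting on CYP7A1, stood at 0.70 and CYP27A1, of the alternative bile acid path, at 0.59. Other probe sets gave -0.19, 0.70, 0.12 and -0.21 for NR5A2 and 0.24 and 0.48 for CYP27A1.

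Of 20 drug-metabolising cytochromes and receptors 0 were called, with a median of 0.46. For 7 of them the milk formula pools all lay above the sow-fed pools and for 0 below, where the shares over all genes are 7.36% and 4.57%. CYP3A29 had ratios of 0.352, 0.143 and 0.194 against 0.912, 0.953 and 0.595. Its groups are well apart, but the difference of 1.91 (SE 0.33) missed the threshold (adjusted p = 0.0974). NR1I2, the receptor that induces CYP3A genes, had 0.229, 0.324 and 0.246 against 1.38, 0.376 and 0.725. Milk formula pool 2 barely exceeded the highest sow-fed pool, and the difference was 1.46 (SE 0.40, adjusted p = 0.42). A second NR1I2 probe set gave 0.15 (adjusted p = 0.966). Conjugating enzymes had 0 of 9 called (median 0.43), among them GSTA4 (0.70), SULT1E1 (0.61) and GSTA1 (0.55).

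Stress genes had none called. Among 18 genes of oxidative stress and the metal-binding metallothioneins (median 0.18), MT3 had ratios of 0.649, 0.854 and 0.765 on sow milk and 2.70, 1.21 and 5.41 on milk formula. The milk formula pools differ widely from each other, and the MT3 difference was 1.80 (SE 0.43, adjusted p = 0.332). MT1A differed by 1.10 (adjusted p = 0.512) and MT-2B by 0.99 (adjusted p = 0.529). Metallothioneins are near copies of each other, so signals may be shared between their probes. Among 19 genes listed under heat shock and chaperones, not all of them chaperones, the median was 0.24. HSP70.2 stood at 2.03 (SE 0.39, adjusted p = 0.181), with 2.51 in milk formula pool 1 and at most 0.997 in the other 2. HSPA8 (0.90) and ATF4 (0.82) followed by p, but the other 3 probe sets of HSPA8 gave 0.03, -0.05 and 0.23.

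Serum proteins of the liver had no called gene. Of 28 measured complement and coagulation genes 23 were below 0, as were 2944 of all 6765 genes, and the median was -0.11. C5, a complement component, had ratios of 1.48, 1.18 and 1.49 against 0.818, 0.831 and 0.770, a difference of -0.77 (SE 0.21, adjusted p = 0.426). C4A (-0.59) and C8G (-0.52) came next by p. Of 27 acute-phase genes 20 were below 0 and 0 were called (median -0.08). The 3 with the smallest p were ITIH4 (-0.88, SE 0.20, adjusted p = 0.313), C-reactive protein gene CRP (1.18, SE 0.28, adjusted p = 0.313) and LBP, which binds bacterial lipopolysaccharide (-1.04, SE 0.25, adjusted p = 0.333; a second probe set of LBP gave -0.29). Their pools do not overlap, but the directions differ.

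Immune, growth and timing genes gave no calls. Interferon-stimulated genes had 0 of 19 called (median 0.24; IFIT3 -0.81, CXCL9 0.63 and IRF7 0.54 first by p). Antigen presentation had 0 of 21 (median 0.23; SLA-DQA1 0.66, PSMB8 0.53 and SLA-2 0.56). In the growth hormone and IGF axis 0 of 15 were called (median 0.05). IGF1, the growth factor that the liver releases under growth hormone, had ratios of 1.58, 0.772 and 0.955 against 2.46, 1.18 and 1.38, which overlap, and differed by 0.60 (SE 0.33). STAT5A stood at 0.56 and IGFBP2 at -0.42. Clock genes had 0 of 7 called (median -0.33; BHLHE40 -0.73, ARNTL -0.47 and RORA -0.39), and cell cycle genes 0 of 21 (median 0.05; PLK1 0.46, MCM2 0.44 and TYMS 0.39).

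Of the 5 sex-linked genes measured none was called between the diets (median -0.12; KDM5C -0.21, SRY -0.15 and EIF1AX -0.12 first by p). The ratio of EIF1AY was 0.162 to 0.325 over the 6 boar pools and 0.136 to 0.145 over the 6 gilt pools, which do not overlap, whereas those of SRY, 0.173 to 0.258 and 0.148 to 0.177, do.

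Markers of liver cell types were set beside these results. Hepatocyte markers had 0 of 10 called and a median of -0.04, with ALB at 0.00; HNF4A (1.24, SE 0.23, adjusted p = 0.166), a factor that governs hepatocyte genes, stood apart from AHSG (-0.27) and FGB (-0.18). The sum of their ratios was 6.65 to 8.90 on sow milk and 7.64 to 8.41 on milk formula. The 8 measured markers listed for cholangiocytes (bile duct cells) summed to 3.38 to 4.28 on sow milk and to 5.02 to 6.25 on milk formula, which do not overlap. KRT8 and KRT18, which are among the 8, are not particular to bile duct cells. SPP1 (1.40, adjusted p = 0.593) had 2.13 in milk formula pool 2 against at most 0.502 in the other 2, and KRT19 (0.77) and CLDN4 (0.45) followed by p. The list had 0 called and a median of 0.25.

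The 9 stellate and fibroblast markers summed to 6.36 to 7.40 on sow milk and to 7.92 to 8.64 on milk formula, again without overlap, with 0 called and a median of 0.17. COL3A1, a collagen, differed by 0.88 (adjusted p = 0.526), RGS5 by -0.86 and ACTA2 by 0.63. The 4 erythroid markers summed to 1.65 to 2.07 and to 2.32 to 2.35, with 0 called and a median of 0.22; AHSP, which stabilises globin, differed by 0.87, HBB by -0.47 and KLF1 by 0.28. Each sum adds ratios with different divisors, so its members weigh unequally. With each marker left out in turn, the cholangiocyte sum still did not overlap (3.14 to 3.96 against 4.12 to 4.54 without SPP1). KRT8 and KRT18 were not left out together. The stellate sum overlapped without COL3A1 (5.35 to 6.51 against 5.58 to 6.77), and the erythroid sum without ALAS2 (0.812 to 1.14 against 1.11 to 1.43) or AHSP (1.33 to 1.64 against 1.51 to 1.79). The part of these cells in the results was not tested. The ratios have no true zero, so absence of a cell type cannot be read from them.

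The sums of the other cell types overlapped between the diets, and none of their markers was called. Macrophage markers summed to 5.43 to 6.17 and to 5.22 to 6.71 (7 genes, median 0.10; CD163 0.48, CD5L -0.37, MRC1 -0.22). Endothelial markers summed to 6.34 to 8.18 and to 5.82 to 7.15 (10 genes, median -0.22; CDH5 -0.57, LYVE1 -0.53, ENG -0.31). For T and NK cells the sums were 2.62 to 3.26 and 2.78 to 3.14 (9 genes, median 0.09; CD3E 0.62, CD8B -0.68, CD3D 0.32). Neutrophil markers gave 2.22 to 2.45 and 2.08 to 2.71 (6 genes, median 0.01; S100A9 -0.48, FCN1 0.51, S100A12 -0.25). The 2 B and plasma cell markers gave 0.360 to 0.384 and 0.325 to 0.390 (median -0.04; JCHAIN -0.21, CD79B 0.12).

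Genes outside the lists came next by p, none of them called. Higher on milk formula, by log2 difference unless a fold is given, were LOC100511905 (2.84-fold), LPCAT3 (1.35), which remodels membrane phospholipids, KLC1 (1.06), a kinesin light chain, and OAZ1 (1.02), which curbs polyamine synthesis. Lower were CXCL14 (-1.64), a chemokine, BTG2 (-1.51), an antiproliferative gene, PLA1A (-1.17), a phospholipase, FZD5 (-1.12), a WNT receptor, TINAGL1 (-1.09) and ANKRD37 (-1.03). Their adjusted p ran from 0.161 for LOC100511905 to 0.259 for CXCL14. In all 10 the pools of the diets do not overlap, which their choice by small p in this same fit makes likely. Over all genes the pools did not overlap for 7.36% higher and 4.57% lower on milk formula. Second probe sets gave less for LPCAT3 (0.30), KLC1 (0.05), OAZ1 (0.39) and CXCL14 (-0.60).

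Gilts gave the same comparison in pools that share no sample with the boars. In gilts 120 of 23935 probe sets were called (0.501%), 15 of which were among the 22 called in boars. These 15 are 68.2% of the boar calls and 12.5% of the gilt calls, and all 15 had the same sign. All 22 boar calls had the sign of the boars in gilts, against 54.4% of all probe sets, and 15 of the 22 were larger in gilts. Over the 120 gilt calls the median size was 1.26 in gilts, and the median in boars, taken in the gilt direction, was 0.61. The 120 were chosen by their gilt values, which by itself tends to make the size larger in gilts. Over the 22 boar calls the median size was 2.115 in boars, and the median in gilts, taken in the boar direction, was 2.69. Of the 120, 105 had the same sign in boars, beside the same 54.4% over all probe sets. For 54 of the 120 the boar pools did not overlap in the gilt direction. Of all 23935 probe sets, the boar pools did not overlap for 1457 higher and 1178 lower on milk formula.

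**Figure D5:**
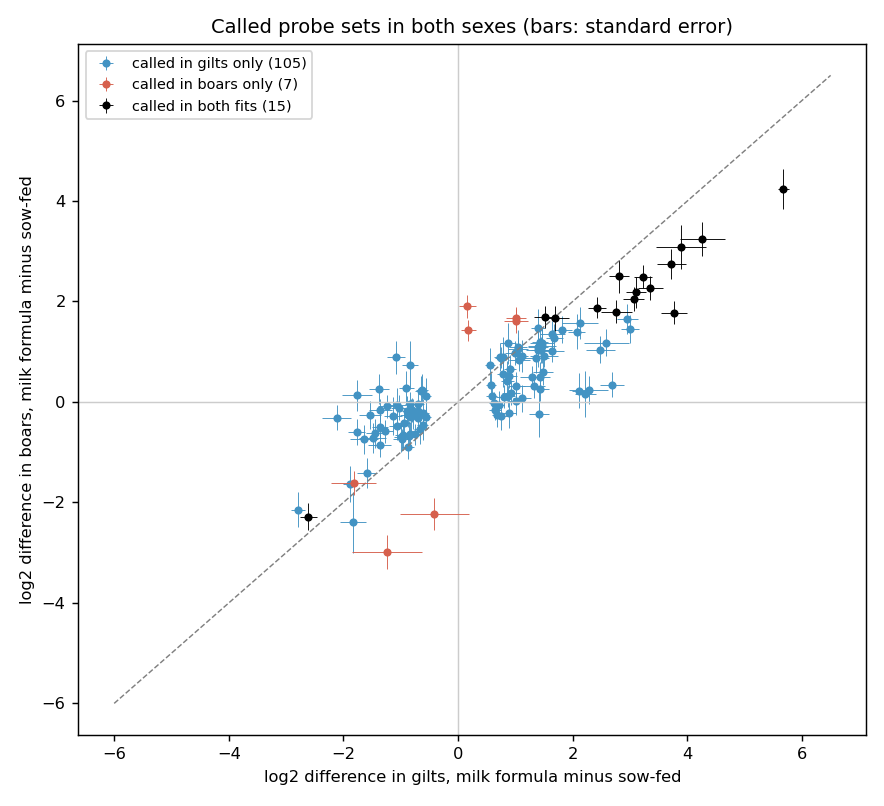
Log2 difference between milk formula and sow milk in gilts (x axis) and boars (y axis) for the probe sets called in either sex, with bars of 1 standard error and a dashed line of equality. Most of the 15 called in both (black) lie on the gilt side of the line, with the larger difference in gilts, and among the 7 called in boars alone (red) AFP lies at -2.99 in boars and -1.24 in gilts.

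The difference between boars and gilts was tested in a limma fit of the 12 arrays with weights estimated for each sex, 0.461 for boars and 2.17 for gilts. None of the 23935 probe sets passed (0% called, smallest adjusted p 0.464), and 1251 (5.23%) had an unadjusted p under 0.05. HAMP differed by 4.24 in boars and 5.68 in gilts, HMGCS1 by 3.24 and 4.26 and SQLE by 1.78 and 3.77. TFRC, not called in boars, fell by 2.80 in gilts (adjusted p = 5.58e-05), and ID1 rose there by 2.96 (adjusted p = 1.95e-04). For each of these genes the difference between the sexes was not called. Of the 11 cholesterol synthesis genes 9 rose in gilts, with a median of 2.48, beside 5 and 1.44 in boars.

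Of the named genes called in boars, AFP, FKBP1B, HSD17B2 and C6H1orf210 were not called in gilts. AFP stood at -1.24 there (SE 0.62, adjusted p = 0.559), and the sexes differed by -1.75 with an unadjusted p of 0.16. Its gilt ratios were 2.47, 4.56 and 2.61 on sow milk and 4.24, 0.808 and 0.648 on milk formula. Only milk formula pool 1 overlapped the sow-fed gilt pools, and the other milk formula pools lay below all of them. FKBP1B stood at -1.82 in gilts and HSD17B2 at 1.01, both in the direction of the boars. C6H1orf210 had gilt ratios of 1.27, 1.28 and 1.21 on sow milk and 1.61, 1.58 and 1.08 on milk formula, which overlap. Its difference was 0.16 in gilts against 1.90 in boars, and the test between the sexes gave an unadjusted p of 8.54e-05 (adjusted p = 0.464).

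The other 4 of the 5 genes with the smallest p between the sexes were not called either. APCS, the serum amyloid P component, stood at 0.35 in boars and 2.69 in gilts (unadjusted p 7.91e-05). MID1IP1, which activates the enzyme that starts fatty acid synthesis, stood at 0.22 and 2.11, CTNNBL1 at 1.14 and -0.20, and ANKFY1 at 0.89 and -1.08. Boar and gilt arrays also differ in their spiked controls (above). The 28S ribosomal RNA ratio was 1.62 to 4.08 on sow-fed boar, 3.51 to 4.65 on milk formula boar and 0.136 to 0.383 on gilt arrays. The GAPDH 3' over 5' ratio was 0.590 to 0.720, 0.658 to 0.690 and 0.963 to 1.18, in the same order. Sex therefore cannot be told apart from a technical difference between the arrays of the sexes.

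Boars on soy formula share the sow-fed pools as controls, so their values are given beside those on milk formula and not as a separate result. The HAMP ratio was 1.26, 1.73 and 1.64 in the soy formula pools, and the difference from sow milk was 4.78 (4.24 on milk formula). HMGCS1 had ratios of 2.44, 1.12 and 1.95 on soy formula and SCD of 1.85, 1.23 and 1.44, which are differences of 4.39 and 3.54 (3.24 and 2.50 on milk formula). AFP had ratios of 0.419, 0.408 and 0.212 on soy formula, a difference of -2.12 (-2.99 on milk formula). C6H1orf210 stood at 0.97, HSD17B2 at 0.85 and FKBP1B at -0.69 on soy formula, and none of the 3 was called there. MT3 stood at 1.80 on milk formula and -1.20 on soy formula, and APOA4 at 1.93 and 0.30. The milk formula and soy formula pools were not tested against each other here.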

How the data were processed

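Liver RNA (8 ug a sample, per the labels) was hybridised to Affymetrix porcine arrays. The authors deposited a linear expression ratio per probe set and array. The tools were GCOS and RMA per the submitters' processing notes; the sources used here give no versions, no build and no divisor for the ratio. Probe sets with a median of 1 over the 18 arrays within 0.002 number 5223. A divisor shared by all arrays, which is an inference and not stated, would cancel in differences between pools of one probe set.

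Groups came from the sample titles. Of 24123 probe sets, 188 controls (AFFX and RPTR) were set aside and 23935 tested; 10069 name 1 gene by the platform annotation, which can be old (6765 genes), 198 several and 13668 none. By gene ID 9961 matched the RefSeq gene table for Sscrofa11.1, with 0 symbols changed. Log2 ratios of the 6 boar arrays were fitted with limma 3.58.1 (R 4.3.3; lmFit, eBayes, prior degrees of freedom 6.89), and gilts likewise. The plan allowed for RMA values, and log2 was taken of the ratios because they proved linear. The difference between the sexes was an interaction over 12 arrays with weights per sex. The fit was tested on simulated data.

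The comparison, the gene lists (34 lists, 427 of 662 symbols measured) and the tests were chosen with earlier results of these data known. The genes named are the called genes, then those of smallest unadjusted p up to 30, up to 4 called members of each list (or 3 of smallest p where none was called), 16 fixed genes (2 of which are not analysed here) and, between the sexes, the 5 of smallest p. Other list members are named to account for a list, after their values were seen. Lists are described by counts and medians alone.

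Pool numbers do not pair the samples: boar arrays of the same number had residual correlations of -0.015, 0.014 and -0.039. The alternatives were other variances, scalings, filters, weights, probe set rules, arrays in the fit, a pool block and each array left out; leaving out each marker of a sum, and each other probe set of a gene, were added after seeing the data. Sequences and coordinates are not used here. The number of arrays limits the precision. Python 3.11.15 made the tables (pandas 2.3.3, numpy 2.4.6) and drew the figures (matplotlib 3.10.9).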

Additional observations from a re-analysis of the deposited data

How the results depend on the processing

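The 22 called probe sets in boars became 21 with robust variances, 23 with all 9 boar arrays and 29 with trended variances. The count stayed at 22 with median centring, quantile normalization or array weights. It was 30 of 14361 tested without the 40% of lowest mean log2 ratio. That filter goes by the ratio and not by brightness, and HAMP was among those removed. Counted in genes, of 6765 tested, it was 17 with 1 probe set a gene and 14 when the probe sets of each gene were averaged. The main fit, adjusted over all probe sets, had 12 genes called. The count of probe sets was 196 when all 18 arrays shared one spread, and 1224 at unadjusted p under 0.05 with a 1.5-fold limit. With the pool number as a replicate block it was 12 (9 higher, 3 lower), 11 of them among the 22. With 1 array left out it was 1 to 14. Between boars and gilts it was 0 in the 12-array fit and in every alternative.

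Over 12 called genes, 139 of 191 gene and alternative pairs kept the call and 52 lost it, 44 of these among the 72 fits with 1 array left out; no called gene changed sign. Over all named genes 8 of 1846 values changed sign, each with 1 array left out and each of a gene that was not called. The ranges of those fits were -0.12 to 0.45 for FASN, -0.0069 to 0.34 for FTL, -0.49 to 0.0080 for KDM5C, -0.33 to 0.12 for EIF1AX, -0.67 to 0.12 for S100A12 and -0.049 to 0.66 for MID1IP1. Of 272 list medians 271 moved by less than their limit; that of cholesterol synthesis was 1.77 without sow-fed pool 2. The deposited ratios hold no signal over background, so its limits were not analysed here.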

Other observations

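Of the 22 called probe sets 7 carry no gene symbol, 5 higher and 2 lower on milk formula. Among those that rose, 1 had ratios of 0.120, 0.190 and 0.155 on sow milk and 0.687, 1.06 and 1.47 on milk formula, and rose by 2.75 (SE 0.30, limma adjusted p = 0.00923). Another had 0.214, 0.195 and 0.255 against 0.898, 0.755 and 0.777, and rose by 1.88 (SE 0.22, adjusted p = 0.0117). Both were called in gilts too, at 3.72 and 2.43. Of those that fell, 1 had 2.04, 2.13 and 1.87 against 0.571, 0.284 and 0.435, a difference of -2.28 (SE 0.27, adjusted p = 0.0117), beside -2.61 in gilts, where it was called. The other had 2.94, 7.54 and 4.09 against 0.954, 1.09 and 0.848, a difference of -2.23 (SE 0.32, adjusted p = 0.0328), beside -0.41 in gilts, where it was not called. The diets do not overlap in any of these 4.

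Probe sets of one gene did not always give the same value in boars. IGF1 stood at 0.60 by the probe set with the highest mean, and at 1.13 and -0.03 by others, none of them called. ATF4 stood at 0.82 and 1.46, CXCL14 at -1.64 and -0.60, GSTA4 at 0.70 and 0.13, IRF7 at 0.54 and -0.08, and TYMS at 0.39 and -0.26. Beside the values given above, other probe sets gave -0.09 and 0.08 for GSTA1, -0.02 for CD163 and -0.08 for CDH5. Those of MCM2 gave 0.12 and -0.04, those of FASN -0.04, 0.68 and -0.08, and those of GAPDH 0.27, 0.90, 0.23 and -0.15. HSP70.2 was alike by its 3 probe sets, at 2.03, 1.81 and 1.91, of which none was called, and HNF4A by its 2, at 1.24 and 1.25.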
